A study of Rattus norvegicus with 14 samples.

Results

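The genes for mitochondrial ribosomal proteins were followed across 3 diets in plantaris, a fast-twitch calf muscle, of Wistar rats. They were taken as every gene whose name on the array begins with Mrpl or Mrps followed by a number, which gave 71 of 26115 gene names: 42 named for the large subunit (Mrpl) and 29 for the small subunit (Mrps). All 71 passed the filter on signal, as did 22812 gene names of the array, and each was represented by its brightest probe. The control group (n = 4) was fed chow holding 1000 IU per kg of vitamin D. The depletion group (n = 6) had a vitamin D depletion diet, and the repletion group (n = 4) was depleted first and then had vitamin D returned to the food. No genetic change is described for these rats, and the sources used here do not give age or duration of feeding. One-colour arrays were used, with 1 array for each muscle, and the 14 arrays lay on 5 slides, none of which held a single diet. For depletion replicate 1 the title says depletion but the diet label says repletion; the title was followed, and the fits of the 3 diets were also made without this animal. Within slides no such value exists for slide 1, where it was the only depletion array.

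Mitochondria have their own ribosome, which translates the few proteins encoded by mitochondrial DNA, all of them core parts of the respiratory chain and the ATP synthase. Its ribosomal RNAs come from mitochondrial DNA, but every one of its proteins is encoded in the nucleus, made in the cytoplasm and imported. Some of these proteins descend from bacterial ribosomal proteins and others were added during the evolution of mitochondria. In other cells, promoters of these genes are known to be bound by the factors NRF1, GABP (an ETS factor) and YY1, which also serve genes of the respiratory chain.

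A level here is a log2 signal after subtraction of the array's own 75th percentile, so that a probe at 0 is as bright as that percentile and 1 unit is a doubling. The 75th percentile lay between 1784.6 and 2389.2, and the share of spots well above background was 82.8% to 88.1%. All 7 fast fibre and all 5 slow fibre markers were well above background on 14 arrays, with mean levels from 5.49 to 8.16, and neither liver marker was so on all 14. Of the 71 genes, 70 were well above background on all 14 arrays; Mrps28, a small subunit protein, was so on 9. The number of arrays limits the precision. In whole muscle, fewer cells of a type and less RNA per cell cannot be told apart.

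Differences are log2 differences ± SE from limma with slide as a block, adjusted over 26387 probes by the Benjamini-Hochberg method and called at an adjusted p under 0.05. The spread left after diet and slide had a median SD of 0.158 for the 71 genes, against 0.178 for all probes above level 0. For the 8 genes whose probe was printed 10 times per array, the median SD between spots of an array was 0.0477 to 0.0883, and the SD between the 14 arrays was 0.114 to 0.331.

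The stretches between the starts of members and their neighbours are shown because many of these genes share such a stretch with another gene, read in the opposite direction, so that 1 short piece of DNA lies before both. RefSeq promoters (build GRCr8, 250 bases before to 50 after the start) matched 56 of the 71 genes. Of these, 17 of 56 (30.4%) had a protein-coding neighbour starting head to head within 1000 bases, against 7.22% of 19005 protein-coding genes. Capitals mark matches to NRF1 (GCGCANGCG), ETS (CCGGAAG) or YY1 (AAGATGGCG) on either strand; the first pair below holds none of them.
Mrpl46 and Mrps11, chr1:142117031-142117263, plus strand: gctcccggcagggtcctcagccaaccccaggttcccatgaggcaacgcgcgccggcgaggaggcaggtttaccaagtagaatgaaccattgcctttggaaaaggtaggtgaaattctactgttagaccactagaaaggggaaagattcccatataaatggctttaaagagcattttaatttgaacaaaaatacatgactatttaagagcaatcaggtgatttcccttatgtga
Psma2 and Mrpl32, chr17:55260442-55260650, plus strand: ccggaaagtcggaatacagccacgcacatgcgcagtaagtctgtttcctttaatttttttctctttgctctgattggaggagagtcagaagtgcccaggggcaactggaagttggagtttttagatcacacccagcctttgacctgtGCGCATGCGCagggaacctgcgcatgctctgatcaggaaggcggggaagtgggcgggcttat
Mitd1 and Mrpl30, chr9:47621034-47621226, plus strand: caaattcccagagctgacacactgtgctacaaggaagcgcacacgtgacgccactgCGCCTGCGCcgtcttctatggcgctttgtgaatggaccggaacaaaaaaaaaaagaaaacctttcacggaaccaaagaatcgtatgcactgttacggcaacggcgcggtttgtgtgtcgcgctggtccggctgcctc
Ptcd2 and Mrps27, chr2:32474114-32474203, plus strand: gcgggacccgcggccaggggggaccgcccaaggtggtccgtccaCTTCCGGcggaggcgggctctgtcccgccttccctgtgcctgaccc
Mrpl46 and Mrps11 are a large and a small subunit gene that start 234 bases apart. Psma2 encodes a proteasome subunit, and Mrpl32 and Mrpl30 encode large subunit proteins.

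Over the whole promoter windows, an ETS match was found in 18 of 56 genes (32.1%) against 11.6% of 19005 genes. NRF1 letters were found in 11 (19.6%) against 8.26%, and YY1 letters in 9 (16.1%) against 2.33%. At least 1 of the 3 was found in 31 genes (55.4%), against 19.5% of all. The E-box CACGTG was found in 6 genes (10.7% against 7.69%) and TATAAA in 8 (14.3% against 13.95%). The direct repeat that the vitamin D receptor is known to bind (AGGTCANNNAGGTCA), searched in its perfect form on both strands, was found in 0 of the 56 and in 3 of the 19005. NRF1 matches can overlap each other, because the motif is nearly its own reverse complement. These matches describe letters in a window and not sites in use.

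The probes of 5 genes described below are shown because each value rests on 60 bases of 1 transcript; coordinates are those of the files (build rn4), and probes that span more than 60 bases of genome cross an intron. No letters are in capitals here because no part is singled out.
Mrps10, chr9:9077319-9077378, minus strand: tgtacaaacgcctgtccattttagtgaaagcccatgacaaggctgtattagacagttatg
Mrpl1, chr14:14813737-14815758, minus strand: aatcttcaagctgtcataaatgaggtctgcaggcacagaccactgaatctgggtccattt
Mrps35, chr4:184656638-184660684, plus strand: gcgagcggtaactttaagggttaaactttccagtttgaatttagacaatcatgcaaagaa
Mrps18b, chr20:2987325-2987478, plus strand: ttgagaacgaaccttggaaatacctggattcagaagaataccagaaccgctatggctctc
Mrps18c, chr14:10096588-10096731, minus strand: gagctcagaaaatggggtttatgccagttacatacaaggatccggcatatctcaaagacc

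Depletion was compared with control to ask how the mitochondrial ribosome genes stand when vitamin D is removed. None of the 71 genes was called, against 0% of all probes, and the lowest adjusted p of limma was 0.836. The genes lay close to control: 28 were higher and 43 lower, with a median difference of -0.05, while 45.7% of all probes were higher with a median of -0.02. Most members are bright, and of the 59 members with a mean level above 0, 25 were higher with a median of -0.04, while 55.5% of the 6334 probes above that level were higher with a median of 0.03. An unadjusted p under 0.05 was found for 3 of 71 on the higher and 0 on the lower side, beside 2.18% and 2.64% of all probes. The 95% interval lay within 1.5-fold in both directions for 62 genes, and within 2-fold for 70. The values of the 2 diets overlapped in all 71 genes; they were separate in 0.841% of all probes.

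The sign of this small median rests on a single array. Without depletion replicate 1, 41 genes were higher and the median difference was 0.02; among the bright members 37 of 59 were then higher with a median of 0.03, beside 56.8% of all probes above level 0. With normexp background correction, which shifts the median of all probes to -0.14, the members relative to that shift had a median of 0.10 and 53 were higher. That shift is the median of all 26387 probes, of which 6334 lay above level 0, while most members did. A normexp shift of bright probes alone is not given here. Median centring gave 30 higher and a median of -0.03.

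**Figure D1:**
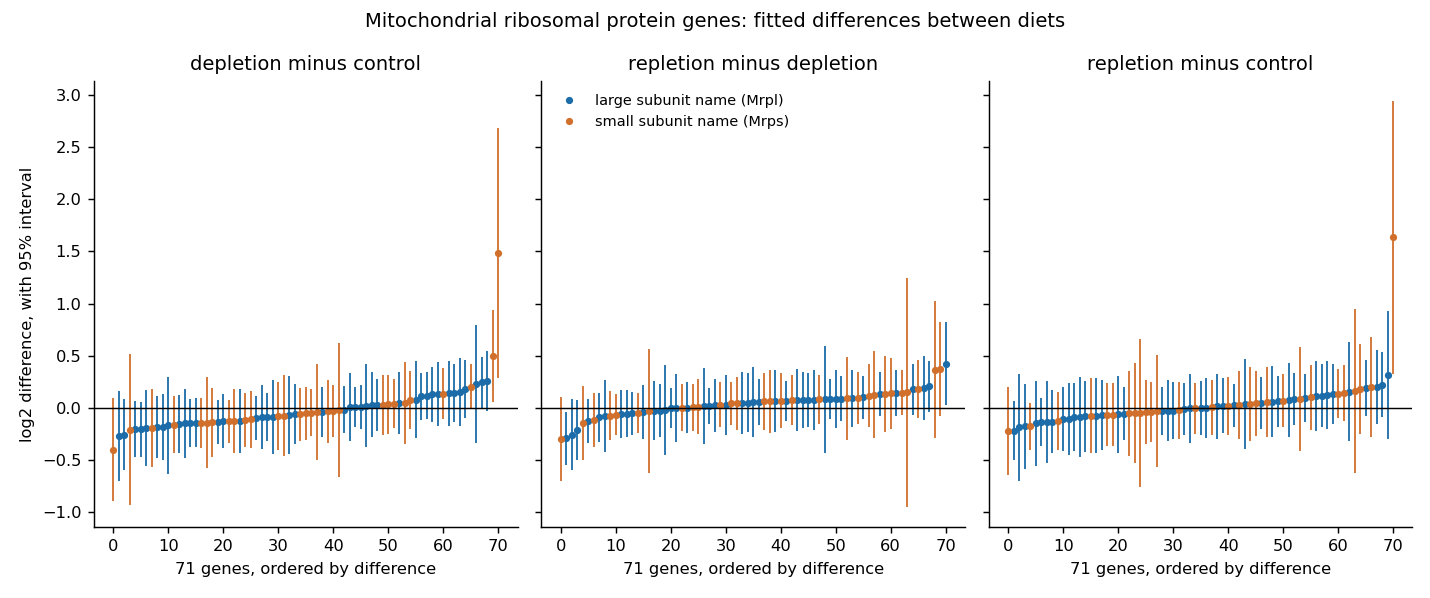
Fitted log2 difference (vertical axis) of each of the 71 genes with its 95% interval, in order of size within each comparison; blue points are large subunit names and orange points small subunit names. Most intervals span 0, and the single high point at the right of the left and right panels is Mrps10, at 1.49 and 1.63.

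By role, the 25 large subunit proteins with bacterial homologues had 11 higher and a median of -0.04, and the 19 large subunit proteins particular to mitochondria had 9 higher and a median of -0.05. The latter class includes Mrps30 and Mrps18a despite their small subunit names, and Mrps18a is a paralogue of a bacterial protein. The 16 small subunit proteins with bacterial homologues had 3 higher and a median of -0.08. The 9 small subunit proteins particular to mitochondria had 5 higher and a median of 0.03. Mrps36 and Mrps21l, at -0.19 and -0.06, were in none of these classes. The ranges of the classes overlapped, and the differences between them were not tested.

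Mrps10, a small subunit protein with a bacterial homologue, had the largest difference. Its level was -3.72, -3.28, -3.46 and -3.33 in the 4 controls. In depletion the lowest was -3.68, the median -2.62 and the highest -0.95. In repletion it was -1.59, -1.59, -3.54 and -3.51. The values fell into separate clusters: 3 depletion and 2 repletion arrays lay between -1.76 and -0.95, and the other 9 arrays, with all 4 controls, between -3.72 and -3.28. The high arrays came from 4 slides. Depletion exceeded control by 1.49 ± 0.53 (unadjusted p = 0.020, adjusted p = 0.836, limma) and repletion exceeded it by 1.63 ± 0.58 (unadjusted p = 0.019, adjusted p = 1, limma), while the diets overlapped. Without the slide block these were 0.90 and 0.89. Leaving out each array in turn gave 1.17 to 2.14 and 1.19 to 1.89. Within slides, depletion minus control was 0.01, 1.70 and 2.38 on slides 1, 2 and 4. A gap of over 1 between neighbouring values with at least 3 arrays on each side, a description chosen after the values were seen, occurred in 1 of 71 genes and in 5.07% of all probes.

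Mrps27, a small subunit protein of the pentatricopeptide repeat family, differed by 0.49 ± 0.20 (unadjusted p = 0.032, adjusted p = 0.836, limma). Control levels were -2.81, -2.52, -2.43 and -2.88, and depletion ran from -2.63 through a median of -2.57 to -1.50. The highest value is depletion replicate 1, which stands apart from the next array at -2.24, and without it the difference was 0.20; without the slide block it was 0.30. Repletion levels were -2.55, -2.49, -2.60 and -2.69, within the control range. Its head-to-head neighbour Ptcd2, whose shared stretch is printed above, differed by -0.13 ± 0.13.

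Mrpl1, a large subunit protein of the stalk that releases transfer RNA in bacteria, differed by 0.25 ± 0.11 (unadjusted p = 0.048, adjusted p = 0.836, limma). Control levels were 1.87, 2.15, 1.77 and 2.18, and depletion ran from 1.88 through a median of 2.14 to 2.40. The groups overlapped over most of their range. The difference within slides 1, 2 and 4 was 0.18, 0.45 and 0.22, and without the slide block it was 0.15.

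Among the genes lower in depletion, Mrps35, a small subunit protein particular to mitochondria, had the largest difference, at -0.40 ± 0.22 (unadjusted p = 0.099). Control levels were 1.23, 0.79, 1.16 and 1.74, and depletion ran from 0.55 through a median of 0.83 to 1.25. The highest control lay above every depletion array and the lowest control within them. Without control replicate 4, or without depletion replicate 5 on the same slide, the difference was -0.21. The other genes with the smallest unadjusted p were Mrpl14 (0.26 ± 0.13) and Mrps7 (0.20 ± 0.10) on the higher side, and Mrpl15 (-0.20 ± 0.12), Mrpl16 (-0.20 ± 0.12), Mrpl42 (-0.26 ± 0.15) and Mrpl41 (-0.14 ± 0.09) on the lower side. Without depletion replicate 1, Mrpl16 was at -0.06, Mrpl42 at -0.09 and Mrpl41 at -0.09, and without control replicate 2 Mrpl42 was at -0.17; no single array moved Mrpl14, Mrps7 or Mrpl15 by over 1.5 times. None of these 6 reached an unadjusted p of 0.05.

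**Figure D2:**
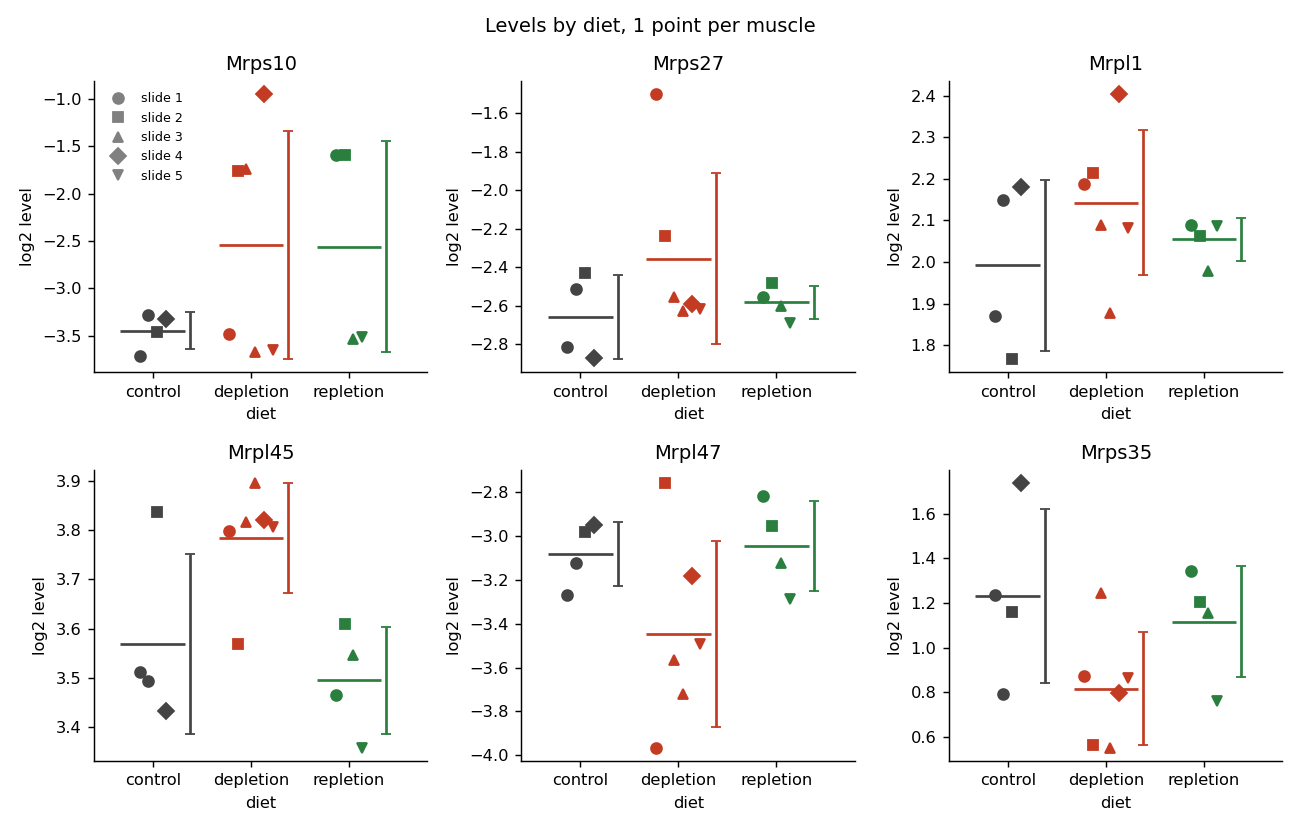
Log2 level relative to the array's 75th percentile (vertical axis) by diet for 6 genes, 1 point per muscle with the slide as symbol; the line is the mean and the bar beside it the SD. The Mrps10 points of depletion and repletion split into high and low arrays while the 4 controls are all low.

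Repletion was compared with depletion to ask what returning vitamin D does. None of the 71 genes was called, against 0% of all probes, with a lowest adjusted p of 0.935 by limma. Here 49 genes were higher and 22 lower, with a median of 0.06, while 58.5% of all probes were higher with a median of 0.04. Of the 59 members above level 0, 40 were higher with a median of 0.06, beside 50.5% of all probes above that level and a median of 0.0016. At an unadjusted p under 0.05, 1 was higher and 1 lower, beside 2.45% and 0.989% of all probes. The 95% interval lay within 1.5-fold for 63 genes. Median centring gave 39 higher and a median of 0.01. Without depletion replicate 1, 34 were higher with a median of -0.01 (27 of the 59 bright members, beside 47.6% of bright probes), and without repletion replicate 1, 32 were higher. With depletion replicate 1 counted as repletion, 31 were higher.

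Mrpl45, a large subunit protein that in mammals anchors the ribosome to the inner membrane, was lower in repletion by -0.29 ± 0.11 (unadjusted p = 0.029, adjusted p = 0.935, limma). Depletion ran from 3.57 through a median of 3.81 to 3.90, and repletion levels were 3.46, 3.61, 3.55 and 3.36. Only the lowest depletion array, depletion replicate 2, fell within the repletion range. Control levels were 3.51, 3.49, 3.84 and 3.43, so 3 of 4 controls also lay below 3.57. Within slides the difference was -0.34, 0.04, -0.31 and -0.45 on slides 1, 2, 3 and 5. Over the fits that left out an array it ranged from -0.39 to -0.25.

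Mrpl47, a large subunit protein, was higher in repletion by 0.42 ± 0.18 (unadjusted p = 0.039, adjusted p = 0.935, limma). Depletion ran from -3.96 through a median of -3.53 to -2.76, and repletion levels were -2.82, -2.95, -3.12 and -3.29. Depletion held both the lowest and the highest array, and controls (-3.27, -3.12, -2.98 and -2.95) lay with repletion. The difference was 0.27 without depletion replicate 1 and 0.28 without repletion replicate 1. Its head-to-head neighbour Ndufb5, a complex I subunit, differed by 0.00047 ± 0.16, and by -0.16 without depletion replicate 1.

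Mrps14, a small subunit protein with a bacterial homologue, was the 1 gene whose groups did not overlap here, beside 0.299% of all probes. Depletion ran from -0.41 through a median of -0.13 to -0.06, and repletion levels were -0.01, -0.05, -0.05 and 0.08. The groups were separated by little, and the fitted difference was 0.15 ± 0.10 (unadjusted p = 0.164), or 0.09 without depletion replicate 1 and 0.10 without repletion replicate 1. The remaining genes with the smallest unadjusted p were Mrps35 (0.37 ± 0.20), Mrpl15 (0.21 ± 0.11) and Mrpl16 (0.18 ± 0.11) on the higher side and Mrps27 (-0.30 ± 0.18), Mrpl40 (-0.26 ± 0.15), Mrpl32 (-0.21 ± 0.13) and Mrpl17 (-0.13 ± 0.09) on the lower side. Without depletion replicate 1 Mrps27 was at -0.11 and Mrpl16 at 0.09, and without repletion replicate 1 they were at -0.18 and 0.10. Mrpl40 was at -0.07 without repletion replicate 2, -0.14 without depletion replicate 2 and -0.41 without repletion replicate 3. Mrpl17 was at -0.05 without repletion replicate 4 or depletion replicate 6. No single array moved Mrps35, Mrpl15 or Mrpl32 by over 1.5 times here. Mrpl17 has a second probe that differed by 0.15 ± 0.14, and Mrpl40 has one that differed by 0.13 ± 0.24. The 2 Mrpl17 probes lie at mean levels of 4.10 and -0.04. The coordinates of the brighter one span 50 bases for 60 bases of sequence. Whether its signal comes from Mrpl17 alone was not tested. This comparison shares the depletion arrays with the one above, so genes low in depletion appear in both.

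Repletion was compared with control to ask whether the levels returned to those of the control diet. None of the 71 genes was called, against 0% of all probes, and the lowest adjusted p of limma was 1. Of the genes, 35 were higher and 36 lower with a median of -0.0004, while 53.7% of all probes were higher with a median of 0.01. Of the 59 members above level 0, 29 were higher with a median of -0.0004, beside 58.9% of all probes above that level and a median of 0.02. At an unadjusted p under 0.05, only Mrps10 was higher and 0 were lower, beside 1.30% and 0.678% of all probes. The 95% interval lay within 1.5-fold for 61 genes. With normexp relative to the shift of all probes (-0.11), 61 were higher and the median was 0.11. That shift again covers all probes, and none for bright probes alone is given.

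The groups did not overlap for 2 genes, beside 1.13% of all probes. Mrpl19, a large subunit protein with a bacterial homologue, was at 0.57, 0.83, 0.60 and 0.87 in control and 0.92, 1.12, 0.99 and 1.00 in repletion, with a fitted difference of 0.20 ± 0.16, or 0.02 without control replicate 3. Mrpl34, another of that class, was at 3.67, 3.79, 3.75 and 3.57 in control and 3.87, 3.92, 3.91 and 3.89 in repletion, with 0.12 ± 0.14, or 0.02 without control replicate 3 and 0.05 without repletion replicate 1; it lies outside the naming rule and was named after its values were seen. All 4 repletion arrays lay above all 4 controls for both, by less than 0.1 at the closest point, and the fitted difference of Mrpl34 was smaller than its SE. Mrpl46 was at 1.11, 1.25, 1.24 and 0.98 in control and 0.98, 0.97, 1.02 and 0.98 in repletion. On the lower side, Mrpl46 differed by -0.22 ± 0.13, from -0.27 to -0.17 with an array left out, and by -0.20 and -0.27 within slides 1 and 2. Its head-to-head partner Mrps11 differed by -0.22 ± 0.19, but had 1 low repletion array at -0.45, repletion replicate 3, without which the difference was -0.08; it was -0.39 without repletion replicate 1 and -0.06 within each of slides 1 and 2. Mrps2 differed by -0.18 ± 0.10.

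The mean deviation of the 71 genes on each array, from each gene's own mean over 14 arrays, gives 1 score per muscle. It was -0.13, 0.04, 0.02 and 0.04 in control. In depletion the lowest was -0.20, the median 0.02 and the highest 0.11. In repletion it was 0.06, 0.05, -0.04 and 0.02. The diets overlapped, with group means of -0.01 ± 0.08 (SD, n = 4), -0.01 ± 0.12 (SD, n = 6) and 0.02 ± 0.05 (SD, n = 4) in that order. Depletion replicate 1 was lowest, with 16 of 71 genes above their mean, and control replicate 1 was next, with 13 of 71. Those 2 arrays lay on slide 1 beside repletion replicate 1, where 51 of 71 were above. The 4 lowest scores were on the 4 arrays with the highest 75th percentile, from 2125.3 to 2389.2; the part of this scale in the scores was not tested. Median centring moved control replicate 1 from -0.13 to -0.03 and depletion replicate 1 from -0.20 to -0.03, while it spread the other arrays from -0.18 to 0.20; quantile normalization left depletion replicate 1 at -0.20.

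**Figure D3:**
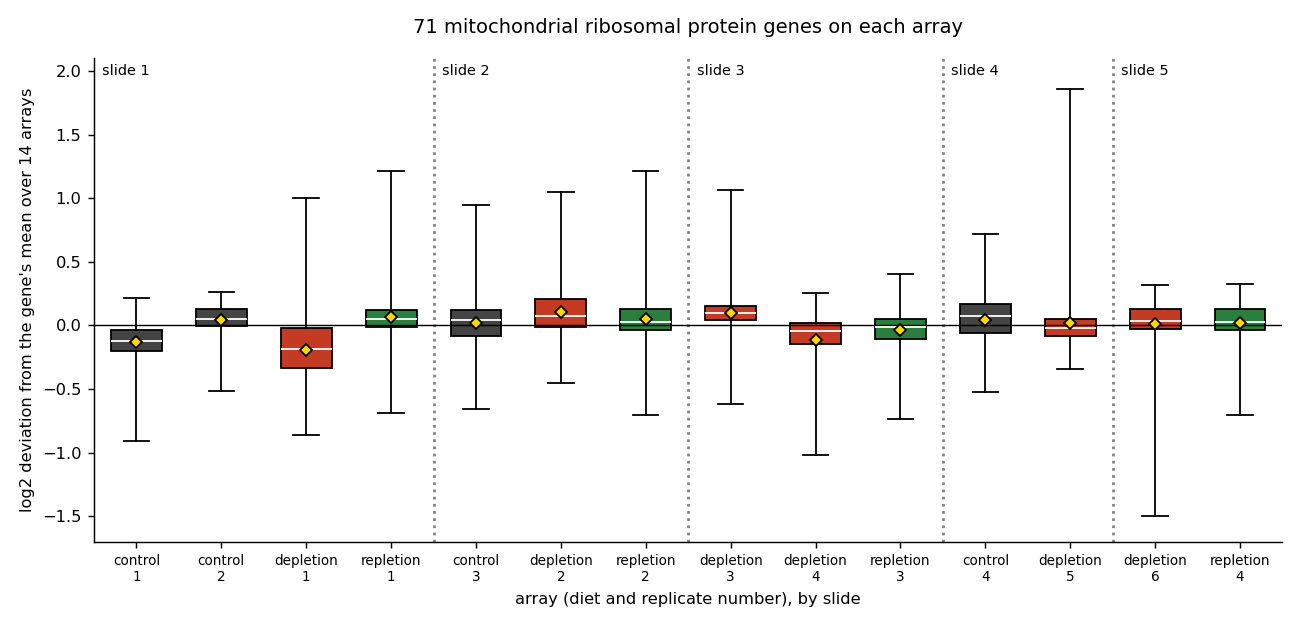
Log2 deviation (vertical axis) of the 71 genes from each gene's mean, for every array, grouped by slide; boxes show quartiles with the median as a white line, whiskers the full range, diamonds the mean, and black, red and green are control, depletion and repletion. Depletion replicate 1 has the lowest mean, -0.20, and neighbours on the same slide lie above and below 0.

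Within slides, the median difference of the members between depletion and control was -0.13, 0.03 and -0.08 on slides 1, 2 and 4, where the median of all probes was -0.03, -0.02 and -0.09. Repletion minus depletion was 0.30 on slide 1, with 56 of 71 genes higher, beside a median of 0.13 and 60.2% higher among all probes. On slides 2, 3 and 5 it was -0.03, -0.04 and -0.01, beside 0.02, -0.03 and 0.03 for all probes. Repletion minus control was 0.09 and -0.01 on slides 1 and 2, beside 0.08 and -0.0023 for all probes. The direction thus differed between slides in all 3 comparisons, and each of these values sets 1 array against 1 or 2 others. The only depletion array on slide 1 is depletion replicate 1.

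An F test over the 3 diets called 0 of 71 genes, against 0% of all probes; at an unadjusted p under 0.05 it held 1 member and 811 probes. An F test over the 5 slides, in the same limma fit, called 2 of 71 genes, against 28.0% of all probes. The share called among all probes was lower for brighter probes, at 49.2% below a level of -4 and 1.71% above 2, and 59 of the 71 genes had a mean level above 0. Among probes above 0, 3.02% were called and 0 of the 59 genes. The 2 called genes were dim. Mrps2, a small subunit protein with a bacterial homologue, had an adjusted p of 0.0040 in limma's slide F test. Its levels on slide 2 were -2.29, -2.53 and -2.46, and on slide 3 they were -3.23, -2.98 and -3.11, with no overlap between those slides. The count of called genes was 0 with normexp, 6 with median centring and 1 to 3 with an array left out. Mrps28 had an adjusted p of 0.046 in that test, with a range from -8.66 to -6.21 near background. Mrpl10, among the genes with the smallest slide p, had an adjusted p of 0.073 and levels from 4.81 to 5.51.

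**Figure D4:**
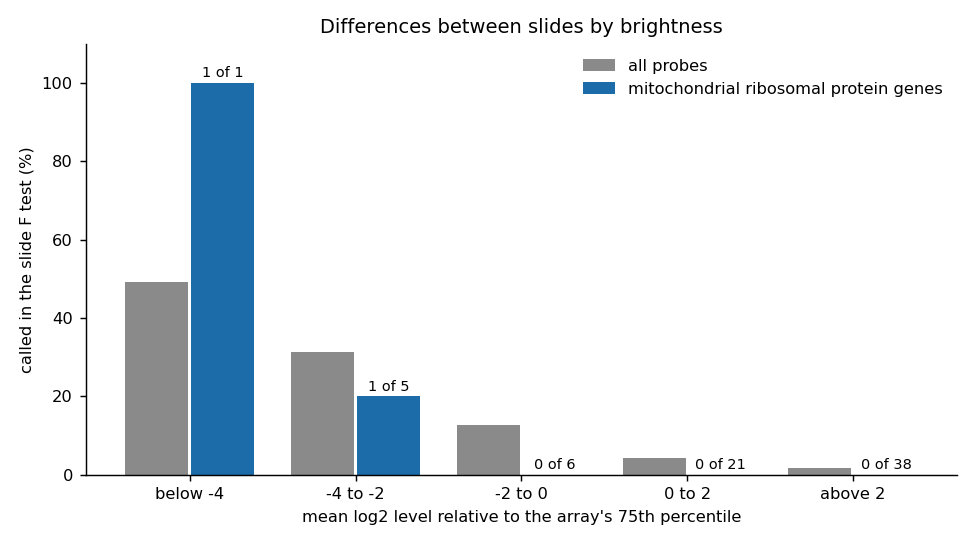
Percent of probes called in the slide F test (vertical axis) by mean log2 level (horizontal axis), for all probes in grey and the 71 genes in blue, with member counts above the blue bars. The grey share goes from 49.2% in the dimmest bin to 1.71% in the brightest, and both called members lie below a level of -2.

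The 3 Mrps18 genes are paralogues of 1 bacterial protein, and a ribosome carries them at different places: Mrps18a is part of the large subunit, and Mrps18b and Mrps18c are part of the small one. Mrps18a was at 2.41, 2.72, 2.70 and 2.74 in control, ran from 2.41 through 2.51 to 2.74 in depletion, and was at 2.51, 2.49, 2.38 and 2.45 in repletion. Its depletion minus control was -0.05 ± 0.11 and its repletion minus control was -0.12 ± 0.12, or -0.05 without control replicate 3 and -0.21 without control replicate 1. Mrps18b differed by -0.03 ± 0.11 and -0.02 ± 0.12 in those comparisons, and Mrps18c by -0.08 ± 0.15 and 0.04 ± 0.16. All 3 paralogues overlapped between diets, and the signs of all 3 in depletion minus control changed when single arrays were left out. Mrps18c was lowest in depletion replicate 1, at 2.18, against 2.61 to 2.74 in the other depletion arrays. Its head-to-head neighbour Helq, a DNA helicase, differed by 0.40 ± 0.35, and by -0.16 without control replicate 3.

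Mrpl12, a stalk protein that is also known to bind the mitochondrial RNA polymerase, was at 4.84, 4.82, 5.06 and 4.83 in control, ran from 4.13 through 4.90 to 5.04 in depletion, and was at 4.81, 4.92, 4.81 and 4.79 in repletion. The 4.13 is depletion replicate 1. The difference between depletion and control was -0.19 ± 0.16, and 0.03 without that array. Mrps36, since placed in the oxoglutarate dehydrogenase complex (RefSeq symbol Kgd4), had the same pattern: depletion ran from 3.25 through 3.96 to 4.06, the lowest being depletion replicate 1, and its difference of -0.19 ± 0.17 was 0.03 without that array. Mrps12, part of the decoding centre, differed by -0.05 ± 0.10, 0.04 ± 0.09 and -0.0022 ± 0.11 in depletion minus control, repletion minus depletion and repletion minus control. Mrps30, which despite its name sits in the large subunit, differed by 0.04 ± 0.10, 0.03 ± 0.10 and 0.07 ± 0.11. In depletion minus control the intervals of Mrps12 and Mrps30 both lay within 1.5-fold.

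For 11 genes a second probe was measured. In depletion minus control the probes of 5 of the 11 had the same sign, in repletion minus depletion 6 and in repletion minus control 7. The median spread between probes of a gene was 0.11, 0.18 and 0.06 in these comparisons, against a median SE of a single gene of 0.13, 0.12 and 0.14. The largest spread in depletion minus control, 0.47, was that of Mrpl50: its brightest probe differed by 0.14 ± 0.14 between depletion and control and its dimmer one by -0.33 ± 0.15. The rule missed subunits spelled otherwise (Mrp63, Ict1, mrpl9, mrpl11 and mrpl24), with depletion minus control of 0.12 ± 0.10, -0.01 ± 0.12, 0.07 ± 0.13, 0.01 ± 0.12 and 0.04 ± 0.12.

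Head-to-head neighbours can be set beside the members whose starts they share. Mrpl32 and Psma2 differed by 0.13 ± 0.14 and 0.37 ± 0.23 between depletion and control, and by -0.21 ± 0.13 and -0.43 ± 0.21 between repletion and depletion. With an array left out, the first pair of values ran from 0.05 to 0.23 for Mrpl32 and from 0.12 to 0.55 for Psma2, and the second from -0.29 to -0.15 and from -0.59 to -0.32. Mrpl40 and Hira, a histone chaperone, differed by -0.26 ± 0.15 and -0.16 ± 0.12 in the latter comparison, and Hira by -0.08 without repletion replicate 1. A second, dimmer Mrpl40 probe differed by 0.13 ± 0.24 there, opposite in sign to the first. Mrpl30 and Mitd1 differed by -0.10 ± 0.09 and 0.16 ± 0.15 between depletion and control; without depletion replicate 1 Mrpl30 was at -0.03, and without depletion replicate 5 Mitd1 was at 0.04. Mrpl49 and Fau, which encodes a protein of the cytoplasmic ribosome, differed by -0.16 ± 0.12 and 0.14 ± 0.11, but by -0.01 and 0.08 without depletion replicate 1. Some pairs thus had the same sign and others opposite signs in the comparisons shown, and in these examples most differences were under 2 SE. The signs within a pair also changed with the comparison. Mrpl40 and Hira differed by -0.18 ± 0.18 and 0.10 ± 0.14 in repletion minus control. Mrpl30 and Mitd1 differed by 0.07 ± 0.08 and 0.26 ± 0.14 in repletion minus depletion. Beyond 2 SE in repletion minus control were Mitd1 (0.43 ± 0.17, mean level -5.49) and Helq (0.81 ± 0.38, mean level -6.79). Helq was at 0.19 there without control replicate 3.

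Genes related to the mitochondrial ribosome were taken from 7 lists with 98 entries, of which 96 were measured. Besides genes that serve the ribosome, the lists hold 7 of its own subunits and 10 regulators. The last of the 7 lists holds 14 genes, which are oxidative phosphorylation subunits and the insertase Oxa1l. None was called in any comparison, against 0% of all probes. Taking an unadjusted p under 0.05 instead, depletion minus control had 3 higher and 0 lower, beside 2.18% and 2.64% of all probes. In repletion minus depletion 1 was higher and 0 lower, beside 2.45% and 0.989%, and repletion minus control had 0, beside 1.30% and 0.678%. In depletion minus control, 27 of 96 were higher, beside 45.7% of all probes, but 57 of 96 without depletion replicate 1, beside 48.2%. In repletion minus depletion 67 were higher, beside 58.5% of all probes, and 39 without that array, beside 56.9%. The majority thus changed side in both comparisons without that array, whose title and diet label disagree.

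The assembly and rRNA modification factors had 7 of 24 higher in depletion minus control with a median of -0.11, and 8 with a median of -0.04 without depletion replicate 1. In repletion minus depletion 21 of 24 were higher with a median of 0.07, and 14 with a median of 0.07 without that array; the medians of all probes were -0.02 and 0.04. Malsu1, which binds the large subunit during its assembly, differed by 0.20 ± 0.08 between repletion and depletion (unadjusted p = 0.046, adjusted p = 0.935, limma), and by 0.18 to 0.23 with an array left out. Ybey, an RNA processing factor, differed by -0.38 ± 0.22 between depletion and control, and by -0.47 to -0.25 with an array left out.

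Of the translation factors, 3 of 13 were higher in depletion than in control, with a median of -0.06; without depletion replicate 1, 10 were higher with a median of 0.05. Mtif3, an initiation factor, differed by 0.35 ± 0.11 (unadjusted p = 0.0088, adjusted p = 0.836, limma) and kept 0.28 to 0.45 with an array left out. Taco1, an activator of translation of a cytochrome oxidase subunit, differed by -0.34 ± 0.18, but by -0.07 without depletion replicate 1, which lay at -4.38 while the other depletion arrays lay between -3.55 and -3.37.

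Of the mitochondrial aminoacyl-tRNA synthetases, which load transfer RNAs, 3 of 16 were higher with a median of -0.07, and 10 with a median of 0.06 without depletion replicate 1. Rars2, for arginine, differed by 0.36 ± 0.12 (0.32 to 0.41 with an array left out) and Yars2, for tyrosine, by -0.20 ± 0.13 (-0.27 to -0.14). Of the transcription and mRNA handling genes, 4 of 12 were higher, and 7 without that array. Mtpap, the mitochondrial poly(A) polymerase, differed by 0.37 ± 0.14 (0.27 to 0.45) and by -0.29 ± 0.13 between repletion and depletion (-0.35 to -0.21). Of the subunits without an Mrpl or Mrps name, 3 of 7 were higher, and 5 without that array. Ptcd3 differed by 0.33 ± 0.18 between repletion and depletion, by 0.17 without depletion replicate 1 and by 0.16 without repletion replicate 1.

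Of 10 regulators, 5 were higher and 5 lower in each comparison, and 4 to 6 were higher with an array left out. Ppargc1a, the coactivator of mitochondrial biogenesis, differed by -0.47 ± 0.27 between depletion and control, but by -0.21 without control replicate 1 and by -0.30 without depletion replicate 1; control replicate 1 lay at -2.07 and the other controls between -3.52 and -3.26, overlapping the depletion range of -4.25 to -3.35. Myc differed by 0.53 ± 0.31, then by -0.53 ± 0.29 between repletion and depletion; without depletion replicate 1 these were 0.21 and -0.33, while without depletion replicate 2 they were 0.87 and -0.83, and without control replicate 3 the first was 0.94.

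Of the 14 nuclear-encoded subunits of oxidative phosphorylation with the insertase Oxa1l, which places mitochondrial products in the inner membrane, 2 were higher in depletion than in control (median -0.12), 7 in repletion than in depletion (median -0.0017) and 1 in repletion than in control (median -0.09). Without depletion replicate 1 the first comparison turned, with 12 of 14 higher and a median of 0.10, and 0 and 4 were higher in the other comparisons, with medians of -0.11 and -0.01. Over all fits that left out 1 array, the number higher ran from 0 to 12, 0 to 12 and 0 to 7 in the 3 comparisons. Sdha, a succinate dehydrogenase subunit, differed by -0.19 ± 0.13 in repletion minus control (-0.26 to -0.13 with an array left out). Atp5b, an ATP synthase subunit, differed by -0.22 ± 0.16 in depletion minus control, and by -0.06 without depletion replicate 1. The control arrays are shared by the first and last of these comparisons.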

How the data were processed

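Total RNA of 14 plantaris muscles was labelled with Cy3 and hybridised to Agilent rat arrays. Per the file headers, the deposited scanner files give each spot's intensity, produced with Feature Extraction 11.5.1.1, background-subtracted within each array and not scaled between arrays. The authors deposited a second table of log2 values, used as an alternative; its centring is not stated, and its column medians run from 8.418 to 8.491. Per the submitters' processing notes limma was also used.

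Spots that the scanner software marked as outliers (0.669% to 1.05%) were dropped, repeated spots averaged, and the 75th percentile of each array subtracted on the log2 scale. A probe was kept (26387 of 30367) if 4 or more of the 14 arrays had it well above background and each diet had 2 or more values. One limma 3.58.1 model (R 4.3.3) held 3 diets and 5 slides, the slide being read from the array barcode, with 7 residual degrees of freedom. No sample value of a member was missing. The titles call the muscles biological replicates.

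Named members were the 5 with the smallest unadjusted p per direction and comparison, the 5 with the smallest slide p and 8 fixed genes; related lists gave 2 per direction, of which a part is printed. Members, classes and lists were chosen with earlier results of these data known. Alternatives were other backgrounds, scalings, filters, blocks and weights, both treatments of depletion replicate 1 and each array left out. The wider member list, the centred normexp values and the related genes with an array left out were added after the data were seen. The fit was tested on simulated data. Python 3.11.15, numpy 2.4.6, pandas 2.3.3 and matplotlib 3.10.9 were used.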

Additional observations from a re-analysis of the deposited data

Results flagged for a closer look

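In 90 groups of 4 or 6 arrays examined for 1 array far from the others, 9 stood apart. For independent groups chance alone gives about 1 in 20. These groups were not independent, because they share the same arrays and include the mean deviation of the 71 genes beside single genes. Apart from the fixed genes, the genes were also named for a small p in these same data. Whether 9 exceeds chance can therefore not be read from that share. Of the 9, 3 were in depletion replicate 1, where title and diet label disagree. Mrps36 was at 3.25 there against 3.88 for the nearest depletion array, Mrps18c at 2.18 against 2.61, and Mrps27 at -1.50 against -2.24. In control replicate 1 the mean deviation of the 71 genes was -0.13 against 0.02 for the nearest control, with Mrpl42 at 1.65 against 1.98 and Mrps18a at 2.41 against 2.70. In control replicate 3, Mrpl12 was at 5.06 against 4.84. In depletion replicate 2, Mrpl45 was at 3.57 against 3.80. In repletion replicate 4, Mrpl17 was at 3.86 against 4.11. What sets these arrays apart was not tested.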

How the results depend on the processing

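No member was called in any comparison under the alternatives tried; over these the lowest adjusted p of limma ranged from 0.584 to 1.00 in depletion minus control, 0.742 to 1.00 in repletion minus depletion and 0.922 to 1 in repletion minus control. With normexp relative to the shift of all probes, the median and the number higher were 0.10 and 53 in depletion minus control and 0.11 and 61 in repletion minus control. These values set mostly bright members against a shift of all probes, most of which lay below level 0. In repletion minus depletion, counting depletion replicate 1 as repletion left 31 higher. With each array left out in turn the number higher ranged from 32 to 53 there, 22 to 41 in depletion minus control and 27 to 45 in repletion minus control. The slide F test called 0 members with normexp, 6 with median centring, and 1 each with quantile normalization, no filter, a filter on all 14 arrays and array weights, and 1 to 3 with an array left out; the cause was not tested. Same-numbered arrays correlated at -0.489 to 0.717 with a median of 0.238, beside medians of 0.456 within slides and -0.184 between slides. That median of 0.238 includes same-numbered arrays that also share a slide. Same-numbered arrays on different slides correlated at -0.489, -0.425, -0.356, -0.241, 0.211, 0.243 and 0.391. These lie on both sides of the median between slides. Whether the numbers pair the samples was not tested. Taking the replicate number as a block, 28, 51 and 42 members were higher with 0 called. Among the differences of single members chosen for naming, 71 of 1508 alternative values changed sign, over 20 differences, none larger than 0.15 in size. The fit without depletion replicate 1 entered that count under 2 settings, and differences not chosen were left out of it. For example, Mrps10 in repletion minus depletion was at 0.15, and at -0.27 without depletion replicate 1. Without depletion replicate 1, depletion minus control was 0.0317 for Mrpl12, 0.00298 for Mrps18b, 0.0694 for Mrps18c, 0.0311 for Mrps36, and repletion minus depletion was -0.0873 for Mrpl12, -0.0143 for Mrps18b, -0.0101 for Mrps30, -0.00308 for Mrps36, and repletion minus control was 0.028 for Mrps36. Without the slide block, depletion minus control was 0.0243 for Mrps18b, and repletion minus control was 0.000181 for Mrps12, 0.0463 for Mrps18b, 0.00638 for Mrps36. With the replicate number as a block, depletion minus control was 0.0155 for Mrps18b, and repletion minus control was 0.000181 for Mrps12, 0.0463 for Mrps18b, 0.00638 for Mrps36. Fitting the 2 groups alone, depletion minus control was -0.00754 for Mrps30, and repletion minus control was 0.0529 for Mrps12, 0.00281 for Mrps36. With array weights, repletion minus depletion was -0.0255 for Mrpl12, -0.0373 for Mrps18b. With it counted as repletion, repletion minus depletion was -0.15 for Mrpl12, 0.00944 for Mrps18a, -0.0227 for Mrps18b, -0.026 for Mrps18c, -0.0281 for Mrps30, -0.0721 for Mrps36, and repletion minus control was -0.0449 for Mrps18c. Averaging a gene's probes, repletion minus depletion was 0.0135 for Mrpl17. With median centring, repletion minus depletion was -0.00105 for Mrps12, -0.0389 for Mrps18b, -0.0155 for Mrps30. With quantile normalization, repletion minus depletion was -0.013 for Mrps18b. With the authors' values, repletion minus depletion was -0.00627 for Mrps18b. With normexp, repletion minus control was 0.000294 for Mrps12. With slide as a random block, repletion minus control was 0.0117 for Mrps18b. With an array left out, depletion minus control ranged from -0.29 to 0.0317 for Mrpl12, -0.0872 to 0.016 for Mrps12, -0.14 to 0.0166 for Mrps18a, -0.0736 to 0.0471 for Mrps18b, -0.15 to 0.0694 for Mrps18c, -0.28 to 0.0311 for Mrps36. With an array left out, repletion minus depletion ranged from -0.0873 to 0.14 for Mrpl12, -0.0665 to 0.0722 for Mrps18b, -0.0133 to 0.0739 for Mrps30, -0.00923 to 0.24 for Mrps36, -0.065 to 0.18 for Atp5b, -0.098 to 0.17 for Ndufs1. With an array left out, repletion minus control ranged from -0.15 to 0.0326 for Mrpl45, -0.0487 to 0.0395 for Mrps12, -0.13 to 0.0615 for Mrps18b, -0.11 to 0.12 for Mrps18c, -0.28 to 0.0744 for Mrps36. Of the related genes, none was called with an array left out. Mrps28 was well above background on 9 of 14 arrays.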
